A study of Mus musculus with 4 samples.

Results

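ILC2 subcluster 7 was a small group of group 2 innate lymphoid cells (ILC2s) with the genes of the type 2 cytokines *Il5* and *Il13*, the growth factor *Areg*, and the receptor adapters *Fcer1g* and *Tyrobp* in more of its cells than in other ILC2s. Its members are the genes that the authors' marker table gives for the subcluster numbered 7, each called a listed gene here. There were 270 of them, of 2629 genes listed for at least 1 of the 10 ILC2 subclusters, which is 10.3%. The authors listed genes by a higher mean level, and the share of cells with a listed gene can still be lower: of the 1000 genes listed for subcluster 5, 22 had the higher share there, and of the 300 listed for subcluster 0, 190 did. Where a gene is said below to be listed for another subcluster with no value, the direction of its share there is not stated. The cells came from wild-type BALB/c mice, 8 weeks old,. For 5 days they were injected i.p. each day, either with PBS as the control or with 0.5 µg of rIL-33, a recombinant form of the cytokine IL-33. Cells negative for lineage markers and positive for CD127, Thy1 and the IL-33 receptor ST2 were sorted from liver and lung. Each of the 4 groups (PBS liver, PBS lung, rIL-33 liver and rIL-33 lung) was 1 library made from the pooled tissue of several mice. Before the ILC2s were clustered again, the authors left out cells with markers of other lineages, among them CD3, CD11b, FcεRI and CD45R. The table pools these 4 libraries, so no value below is split by organ or treatment, there were no replicates, and no comparison of rIL-33 with PBS or of liver with lung was made.

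ILC2s are tissue lymphocytes without rearranged antigen receptors that respond to IL-33, TSLP and IL-25. They depend on the transcription factors GATA3 and RORα, and they are known for releasing IL-5, which sustains eosinophils, IL-13, which acts on epithelium, macrophages and hepatocytes, and amphiregulin, which promotes repair. FcεRIγ, the product of *Fcer1g*, and DAP12, the product of *Tyrobp*, are short membrane adapters that couple surface receptors of myeloid cells, mast cells, basophils and natural killer (NK) cells to tyrosine kinases through a motif called ITAM.

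For each listed gene the table gives the share of the subcluster's cells with a value above 0 and the same share of all other ILC2s. A share says how many cells had the gene, not how much of it each cell held. The cells had been clustered on their gene expression, so a difference between the subcluster and the rest follows from how it was made and is given as a description with no test. The subcluster held 1.42% of all ILC2s, solved from the shares as described under the processing. Rounding of the shares to 3 decimals allows 1.35% to 1.55%. The tables give neither cells per subcluster nor depth per cell, and no counting interval is given for the shares. The part that RNA content per cell had in them was not tested.

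Of the 270 listed genes, 269 were found in a larger share of subcluster 7 than of other ILC2s, and *Id2* was the exception. The 5 lowest differences were those of *Hspa8* (2.0 points), *Hsp90ab1* (1.8), *Srgn* (1.6), *H3f3b* (1.3) and *Id2* (-0.4). The median difference was 23.1 percentage points. The difference was at least 10 points for 252 genes (9.59% of the genes listed for any subcluster), at least 20 points for 182, at least 30 points for 38 and at least 40 points for 2. The share in subcluster 7 was at least 2 times that in other ILC2s for 95 genes and at least 5 times for 9. In 77 cases a gene present in under 50% of other ILC2s was present in at least 50% of subcluster 7. Listed genes with a reference gene model (269 of 270) were mostly protein coding (258).

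**Figure D1:**
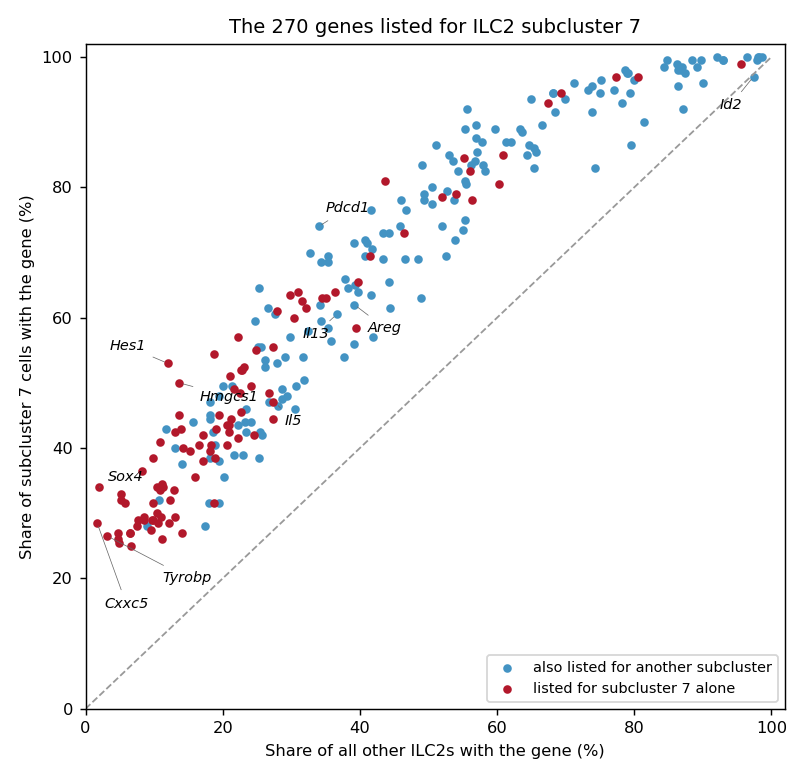
Each point is 1 of the 270 genes listed for ILC2 subcluster 7, with its share (%) in all other ILC2s on the x axis and in the subcluster on the y axis. Red points (101) were listed for no other subcluster and blue points (169) were. All but *Id2* lie above the dashed line of equal shares.

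The adapters and the cytokines differed in how common they were elsewhere. *Fcer1g* (ENSMUSG00000058715, GRCm38 chromosome 1, 171229572 to 171234365, minus strand) was found in 32.0% of subcluster 7 and in 5.2% of other ILC2s. *Tyrobp* (ENSMUSG00000030579, chromosome 7, 30413760 to 30417585, plus strand) was found in 26.5% against 3.2%. Neither was listed for any other subcluster. How many cells had both genes is not given. Of the 9 adapter genes of the ITAM class and its relatives, 5 were listed for some subcluster and these 2 for subcluster 7, against 10.3% of all genes. *Fcer1g* and *Tyrobp* were markers that named the subcluster beforehand, so this count is only a description. *Cd3e*, *Cd3g* and *Cd79b* were listed for other subclusters, while *Cd247*, *Hcst*, *Cd3d* and *Cd79a* were listed for none.

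None of the 22 genes on a list of Fc receptors and receptor partners of these adapters, *Fcer1a*, *Ms4a2*, *Fcgr3*, *Ncr1* and *Trem2* among them, was listed for any ILC2 subcluster. Cells with FcεRI or CD11b had been left out beforehand, so for *Fcer1a*, *Ms4a2* and other genes of such cells this follows in part from that filter. Of 22 kinases, scaffolds and phosphatases that act downstream, 11 were listed for some subcluster and 2 of these (18.2%, against 10.3% of all genes) for subcluster 7. *Ptpn6*, which encodes the phosphatase SHP-1, was found in 49.5% against 20%. *Plcg2*, which encodes a phospholipase C, was found in 32.0% against 12.3% and was listed for subcluster 7 alone. *Syk*, *Lyn*, *Btk* and *Zap70* were listed for no subcluster. *Ubash3b*, which encodes a phosphatase that dampens antigen receptor signalling, was found in 70.0% against 32.7%.

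Of 23 cytokine and growth factor genes on the list, 8 were listed for some ILC2 subcluster and 5 of these (62.5%, against 10.3% of all genes) for subcluster 7. Among the 5, *Il5*, *Il13* and *Areg* were markers that named the subcluster beforehand, so this count is only a description. The others were *Il4* and *Osm*. *Areg* (ENSMUSG00000029378, chromosome 5, 91139599 to 91148432, plus strand) was found in 62.0% of subcluster 7 and in 39.2% of other ILC2s. *Areg* was also listed for subcluster 8, where 57.3% of cells had it, and for subcluster 3 at 51.7%. Outside these 3 subclusters 36.8% of ILC2s had *Areg*. Subcluster 7 thus had the highest share among the subclusters that listed the gene.

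*Il13* (ENSMUSG00000020383, chromosome 11, 53631324 to 53634702, minus strand) was found in 60.5% of subcluster 7. The other subclusters that listed *Il13* had 69.7% (subcluster 8), 62.1% (subcluster 4), 56.5% (subcluster 2) and 52.8% (subcluster 1). Among ILC2s outside these 5 subclusters 17.8% had *Il13*. Subcluster 7 was in the middle of this order, between subclusters 4 and 2.

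*Il5* (ENSMUSG00000036117, chromosome 11, 53720794 to 53725106, plus strand) was found in 46.5% of subcluster 7. It was found in 42.0% of subcluster 9, the other subcluster that listed *Il5*, and in 28% of the ILC2s outside both. *Il4* (ENSMUSG00000000869, chromosome 11, 53602982 to 53618669, minus strand), which encodes the cytokine that drives type 2 helper differentiation, was listed for subcluster 7 alone, with 41.5% against 22.3%. *Osm*, which encodes oncostatin M of the IL-6 family, was also listed for subcluster 7 alone, with 29.5% against 13.1%. All 3 cytokine genes of the type 2 locus on chromosome 11 were therefore listed for this subcluster. No errors are set here on the gaps between subclusters.

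**Figure D2:**
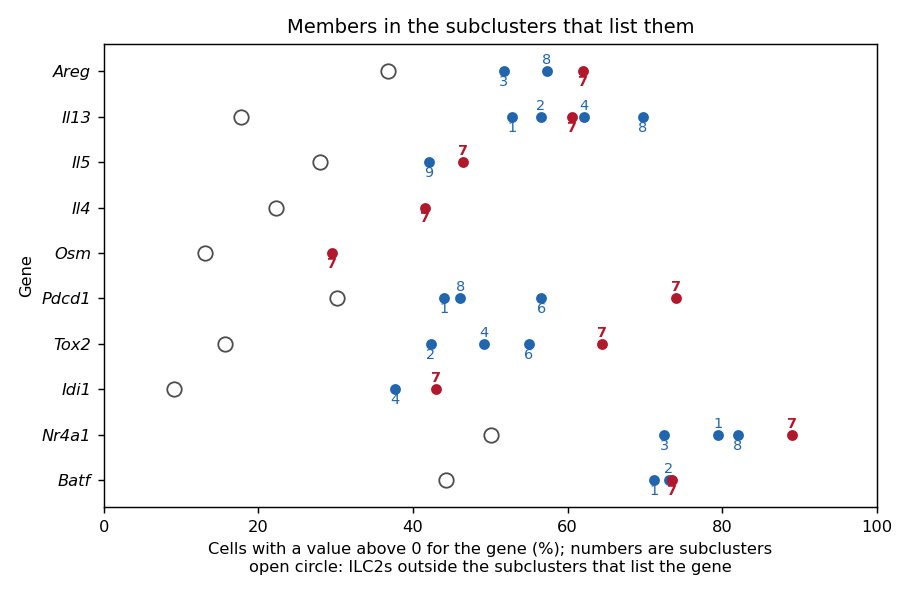
The x axis gives the share of cells (%) with each gene on the y axis. Filled points are subclusters that list the gene, numbered, with subcluster 7 in red, and open circles are the ILC2s outside those subclusters. Among the subclusters drawn, subcluster 7 is highest for *Areg*, *Il5*, *Pdcd1*, *Tox2*, *Idi1*, *Nr4a1* and *Batf*, while subclusters 4 and 8 exceed it for *Il13*. For *Batf* its 73.5% is close to the 73.1% of subcluster 2.

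Of 31 lymphoid transcription factor genes, 19 were listed for some subcluster and 11 of these (57.9%, against 10.3% of all genes) for subcluster 7, of which 9 differed by at least 10 points. *Sox4*, which encodes an HMG-box factor of early lymphoid cells, was found in 34.0% against 2.0%, a share 17.0 times as high. *Zbtb16*, which encodes PLZF, a factor of innate lymphoid precursors and innate-like T cells, was found in 33.0% against 5.2%. *Runx3*, which encodes a Runt factor of ILCs and cytotoxic lymphocytes, was found in 84.5% against 55.2%. These 3 were listed for subcluster 7 alone.

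The related HMG-box genes *Tox2* and *Tox* were found in 64.5% against 25.3% and in 56.5% against 35.8%. *Tox2* was also listed for subclusters 6 (55.0%), 4 (49.2%) and 2 (42.3%), and *Tox* for subcluster 9 (51.9%). *Nfil3*, needed for early ILC development, was found in 38.0% against 19.4%, below the 42.7% of subcluster 8, and *Ikzf2*, which encodes Helios, in 69.0% against 48.5%. *Tcf7*, which encodes TCF-1, was found in 38.5% against 25.3%, below the 51.8% of subcluster 1. *Rora* was present in nearly all cells of both sides, at 96.0% against 90.1%, and *Id2*, the general ILC factor, at 97.0% against 97.4%.

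Of 13 progenitor markers, 8 were listed for some subcluster and 6 of these (75.0%, against 10.3% of all genes) for subcluster 7. Of the 6, *Sox4*, *Zbtb16*, *Tox* and *Tcf7* are also on the lymphoid factor list above, so both counts share genes. The lists were chosen with earlier results of these data known, so this count is only a description. The others were *Pdcd1*, which encodes the inhibitory receptor PD-1, and *Lmo4*. *Pdcd1* had the second largest difference of all, at 74.0% against 34.0%. It was listed for subclusters 6 (56.6%), 8 (46.1%) and 1 (44.0%) as well. *Lmo4* was found in 95.5% against 86.4%. The stem cell markers *Cd34*, *Flt3*, *Meis1* and *Mecom* were listed for no ILC2 subcluster, and *Kit* and *Ly6a* were listed only for others.

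The largest difference of all belonged to *Hes1*, a transcriptional repressor induced by Notch, at 53.0% against 12.0%. *Hes1* was listed for no other subcluster. Other regulators listed for subcluster 7 alone, named after their values were seen, were *Tcf4*, which encodes the E protein E2-2 (36.5% against 8.3%), and *Cxxc5*, which encodes a CpG-binding zinc finger protein (28.5% against 1.7%). *Myb*, a factor of haematopoietic progenitors and dividing cells, was found in 28% against 8.9%, below the 49.2% of subcluster 4. Further genes named by the size of their difference were *Kdm5b*, a histone H3K4 demethylase gene (63.5% against 29.8%), *Cux1*, a homeodomain factor gene (64.0% against 31.0%), *Hmgn3* (45.0% against 13.7%), *Hmgn1* (68.5% against 34.3%) and *Smarcc1* of the BAF remodelling complex (68.5% against 35.3%). *Hmgn1* (75.6%) and *Smarcc1* (75.3%) were more common in subcluster 4.

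**Figure D3:**
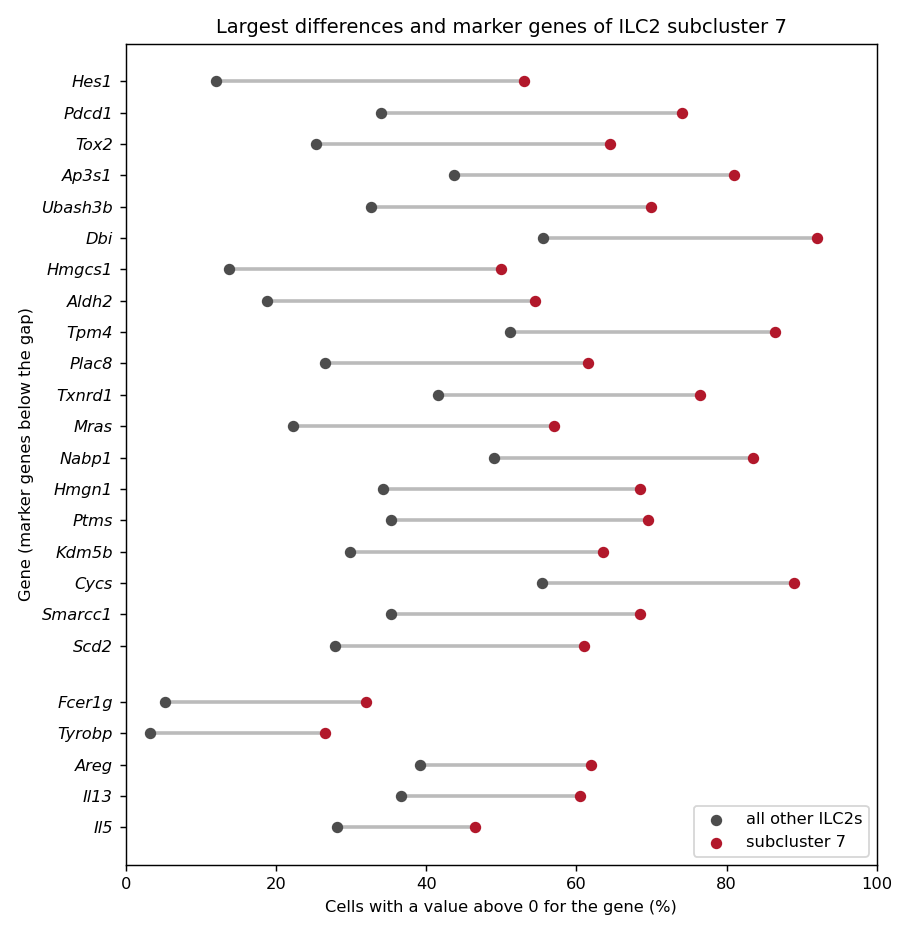
Shares of cells (%) with the gene in subcluster 7 (red) and in all other ILC2s (grey), for 19 of the 20 listed genes with the largest difference, from *Hes1* at 41.0 points down to *Scd2* at 33.1 points, and for the 5 marker genes below the gap. Every red point lies to the right of its grey one.

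Genes of cholesterol and fatty acid synthesis formed a further group. This list was written after the values were seen, so it gets no test and its count is no evidence of its own. Of 20 enzymes that make cholesterol from acetyl-CoA, 9 were listed for some ILC2 subcluster and all 9 were listed for subcluster 7, with a median difference of 29.4 points. *Hmgcs1*, which makes HMG-CoA, was found in 50% against 13.7%. *Mvd*, a mevalonate pathway decarboxylase, was found in 28.5% against 12.2%.

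For the isoprenoid steps, *Idi1* was found in 43.0% against 11.8% and *Fdps* in 52.5% against 23.1%. *Fdft1*, which makes squalene, was found in 29.0% against 9.9%. For the sterol steps, *Cyp51* was found in 44.5% against 21.2% and *Msmo1* in 34.5% against 11.1%. *Idi1* was also listed for subcluster 4 at 37.7%. Of the 9 genes, 7 were listed for subcluster 7 alone.

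Of 12 fatty acid synthesis genes, the 2 listed for any subcluster were listed for this one. *Scd2*, a desaturase gene, was found in 61.0% against 27.9%, and *Fasn*, the fatty acid synthase gene, in 43.0% against 13.9%. *Dbi*, which encodes an acyl-CoA binding protein, was found in 92.0% against 55.6%. The 11 other enzymes of the sterol list, *Sqle*, *Lss* and *Mvk* among them, were listed for no subcluster. None of 12 genes of sterol sensing, uptake and efflux was listed for subcluster 7, *Insig1* and *Srebf2* included.

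Promoter sequence for 5 of the 9 sterol genes was at hand from RefSeq (GRCm38.p6), and it is shown because these genes were listed together. The windows searched ran from 250 bases before to 50 bases after each gene's start. A sterol regulatory element was searched as TCACNCCAC and the CCAAT box as CCAAT, each on both strands. The first was found for *Hmgcs1* alone among the 5, in none of the 10 unlisted sterol genes with an entry, in 5 of the 205 listed genes with an entry (2.44%), and in 1.44% of the 27025 genes with one. A CCAAT box was found in all 5, in 9 of the 10 unlisted sterol genes with an entry, in 50.2% of the 205 listed genes with an entry, and in 41.1% of all genes. These matches describe letters and were not tested as binding sites. The stretches just before the start are printed 5′ to 3′ on the gene's strand, with both kinds of match in capitals (a CCAAT box on the other strand reads ATTGG).

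Hmgcs1, chr13:119690171-119690350, plus strand: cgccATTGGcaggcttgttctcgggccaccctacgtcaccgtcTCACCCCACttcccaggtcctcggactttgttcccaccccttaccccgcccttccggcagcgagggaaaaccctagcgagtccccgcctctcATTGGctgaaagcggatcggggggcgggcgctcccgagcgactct
Idi1, chr13:8885486-8885605, plus strand: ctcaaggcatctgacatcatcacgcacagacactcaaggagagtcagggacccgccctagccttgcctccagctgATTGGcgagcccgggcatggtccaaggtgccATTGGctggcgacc
Msmo1, chr8:64733579-64733698, minus strand: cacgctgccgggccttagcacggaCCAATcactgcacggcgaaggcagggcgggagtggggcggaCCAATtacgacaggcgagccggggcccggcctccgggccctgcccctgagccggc
Cyp51, chr5:4104698-4104817, minus strand: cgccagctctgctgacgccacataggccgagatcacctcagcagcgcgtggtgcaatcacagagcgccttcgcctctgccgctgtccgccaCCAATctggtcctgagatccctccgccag
Mvd, chr8:122443423-122443542, minus strand: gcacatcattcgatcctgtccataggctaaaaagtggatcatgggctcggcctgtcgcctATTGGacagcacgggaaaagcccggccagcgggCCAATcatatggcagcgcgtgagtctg

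In *Hmgcs1* the sterol regulatory element began 137 bases before the start, between CCAAT boxes at 176 and 45 bases. *Idi1* had CCAAT boxes at 45 and 14 bases, *Msmo1* at 96 and 55, *Mvd* at 60 and 27, and *Cyp51* had 1 at 29 bases.

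Genes of cell activation were listed in part. Of 23 immediate early genes outside the AP-1 family, 20 were listed for some subcluster and 7 of these (35.0%, against 10.3% of all genes) for subcluster 7. *Nr4a1*, an orphan nuclear receptor gene induced by receptor signalling, was found in 89.0% against 59.7%, above subclusters 8 (82.0%), 1 (79.5%) and 3 (72.5%). *Egr1* was found in 44.0% against 24.1%, and *Ier3* in 25.5% against 4.9% and for subcluster 7 alone. *Dusp5*, a feedback phosphatase gene of ERK, was found in 69.5% against 40.8%. Of 16 NF-κB genes, 8 were listed for some subcluster and 1 of these (12.5%, near the 10.3% of all genes) for subcluster 7. It was *Rel*, at 49.5% against 21.4%, and the inhibitor genes *Nfkbia* and *Tnfaip3* were listed for other subclusters.

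Of 12 genes of the AP-1 family and its small Maf and BATF relatives, 8 were listed for some subcluster and 3 of these (37.5%, against 10.3% of all genes) for subcluster 7. *Fosl2* was found in 65.5% against 44.2%, close to subclusters 3 (62.7%) and 8 (60.7%). *Batf* was found in 73.5% against 55.1%, close to subclusters 2 (73.1%) and 1 (71.2%). *Maff* was found in 28.5% against 10.5%. *Fos*, *Fosb*, *Jun*, *Junb* and *Jund* were each listed for other subclusters and not for this one. Feedback genes of cytokine signalling were *Socs3* (30% against 10.4%), *Socs1* (50.5% against 31.8%) and *Pim3* (42.0% against 24.5%). They were 3 of the 8 listed for any subcluster (37.5%, against 10.3% of all genes). Of 18 receptor genes of the common gamma chain and IL-1 families, 11 were listed for some subcluster and 2 of these (18.2%, against 10.3% of all genes) for subcluster 7. *Il1r2*, which encodes a decoy receptor, was found in 44.5% against 18.2% and *Il18r1* in 39.0% against 21.7%. Both were more common in another subcluster, *Il1r2* in subcluster 9 (49.4%) and *Il18r1* in subcluster 8 (40.4%).

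The list of subcluster 4 holds most of the cell cycle genes and is long, at 802 genes or 30.5% of those listed for any subcluster. Subclusters 7 and 4 are each compared with largely the same other ILC2s, so a gene common to both lists is a description. There were 75 such genes, 27.8% of the list of subcluster 7 (near that 30.5%) and 9.35% of the list of subcluster 4 (near the 10.3% of all genes listed for subcluster 7), and 25 of the 75 had the higher share in subcluster 7. Of 24 proliferation genes, 18 were listed for some subcluster and 1 of these (5.56%, against 10.3% of all genes) for subcluster 7. It was *H2afz*, at 99.5% against 89.7%. *Mki67*, *Top2a* and *Cdk1* were not listed for subcluster 7.

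*Cycs*, which encodes cytochrome c, was found in 89.0% of both subclusters and in 51.9% of the ILC2s outside them. All 8 subunit genes of the chaperonin CCT were listed for subcluster 4, and 4 of these 8 for subcluster 7, against 10.3% of all genes. The CCT list was written after the values were seen, so its count is no evidence of its own. *Cct3* was found in 89.0% against 63.3%, *Tcp1* in 87.0% against 61.3%, *Cct6a* in 86.0% against 65.4% and *Cct2* in 94.5% against 79.4%. Each of these 4 was more common still in subcluster 4, from 93.8% for *Cct3* to 98.2% for *Cct2*. Of 17 heat shock and ER chaperone genes, 16 were listed for some subcluster and 6 of these (37.5%, against 10.3% of all genes) for subcluster 7. Only 3 of the 6 differed by at least 10 points, and subcluster 4 listed 11 of the 17. *Hspa8* and *Hsp90ab1* were found in 100% of subcluster 7 and in 98.0% and 98.2% of other ILC2s.

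Of 32 genes of glycolysis and the hypoxia response, 16 were listed for some subcluster and 6 of these (37.5%, against 10.3% of all genes) for subcluster 7. *Pgk1* was found in 94.5% against 68.2%, *Pgam1* in 85.5% against 57.1%, *Hilpda* in 85.5% against 65.7% and *Ddit4* in 81.0% against 55.3%. *Hk2*, a hexokinase gene, was found in 34.0% against 11.3% and for subcluster 7 alone. *Ero1l* was found in 83.0% against 65.4%. Of these genes, 4 had a higher share in another subcluster, *Pgk1* (96.2%) and *Pgam1* (93.4%) in subcluster 4, *Hilpda* (86.5%) in subcluster 8 and *Ero1l* (83.7%) in subcluster 6. *Gapdh*, *Ldha*, *Pkm*, *Eno1* and *Hif1a* were listed for other subclusters and not for this one.

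Of 26 ILC2 identity genes, 15 were listed for some subcluster and 3 of these (20%, against 10.3% of all genes) for subcluster 7, namely *Tcf7*, *Rora* and *Id2*. *Gata3*, *Il1rl1*, which encodes ST2, *Il7r*, *Klrg1* and *Icos* were listed for other subclusters only. A gene missing from a list may have been lower, unchanged, not tested or higher by less than the authors' limits, and these cases cannot be told apart. None of the 17 interferon response genes listed elsewhere was listed for subcluster 7. The checkpoint receptor gene *Ctla4* and the chemokine genes *Ccl5* and *Cxcl2* were not listed either.

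Markers of other cell types were read from short lists of known genes. Because cells with CD3, CD11b, FcεRI or CD45R had been left out, missing markers of T cells, myeloid cells, basophils and B cells follow in part from that filter and are no independent check. Of 16 basophil markers, *Il4* was listed for subcluster 7, and the defining genes *Mcpt8*, *Fcer1a*, *Ms4a2*, *Cd200r3* and *Cpa3* were listed for no ILC2 subcluster. None of 16 macrophage and monocyte, 12 ILC3 and 12 B cell markers was listed for subcluster 7. For any subcluster, 2, 3 and 2 of them were listed. Of 20 NK cell and ILC1 markers, 3 were listed, while *Ncr1*, *Eomes*, *Tbx21*, *Prf1* and *Klrd1* were listed for no subcluster. The 3 were *Nkg7*, a cytotoxic granule gene (40% against 13%), *Txk*, a kinase gene (45.0% against 18.1%), and *Ctsw*, a cathepsin gene (42.5% against 23.4%), all of which were also listed for subclusters 4 and 5.

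Of 16 T cell markers, 7 were listed for some subcluster and 2 of these (28.6%, against 10.3% of all genes) for subcluster 7. These were the receptor constant genes *Tcrg-C1* (42.0% against 25.8%) and *Trbc1* (86.5% against 79.5%). *Cd3e*, *Cd3g* and *Trdc* were listed only for other subclusters. *Tcrg-C4*, another gamma chain constant gene, was found in 69.5% against 52.6%. Receptor constant genes have related copies, so their values are uncertain. Hepatocyte, lung epithelial and erythroid markers were listed for no subcluster, and no list of endothelial markers was used.

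The lists of the cell type table, taken whole, gave another view. Of the 820 genes in both tables, 166 (20.2%) were listed for subcluster 7. Among the 132 of these genes listed for Basophil, 53 (40.2%) were listed for subcluster 7, and among the 99 listed for Macrophage, 40 (40.4%) were. For NK it was 39 of 105 (37.1%), for Endothelium cell 27 of 108 (25.0%), for MMP_LMPP 67 of 281 (23.8%) and for ILC2 itself 20 of 116 (17.2%). For gdT_Naive it was 32 of 92 (34.8%), for gdT_TypeI 28 of 86 (32.6%) and for ILC1 28 of 88 (31.8%). The share was above the 20.2% of all genes for 16 of the 21 cell types, with Macrophage and Basophil at the top. These counts take a listing whatever its share of cells. With a share at least 10 points higher required in both lists, 36 of 96 genes remained for Macrophage, 37 of 106 for Basophil, 59 of 255 for MMP_LMPP and 27 of 104 for Endothelium cell. There were 18 of 51 for NK, 17 of 51 for ILC1, 9 of 98 for ILC2, 8 of 30 for gdT_TypeI and 4 of 12 for gdT_Naive. At this limit 152 of all 820 genes were listed for subcluster 7. The order above does not carry over to this limit, since NK then stood slightly above Basophil. In the table of all sorted cells, *Fcer1g* was listed for the types named Basophil, Macrophage, NK, ILC1 and ILC1_ILC3, and *Tyrobp* for these 5 and MMP_LMPP. *Sox4* was listed there for Macrophage and MMP_LMPP, *Zbtb16* for ILC3 and the 2 gdT_TypeIII types, *Il4* and *Osm* for Basophil, and *Il5* for ILC2. What part carried-over cells or doublets had in the listed genes was not tested.

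The small size of the subcluster set how much of the ILC2s with each gene it could hold. Size and shares give the percentage of all ILC2s with the gene that lie in subcluster 7, with a range from rounding of the shares. It was 19.7% for *Sox4* (18.5% to 21.6%), 19.5% for *Cxxc5* (18.2% to 21.4%) and 10.7% for *Tyrobp* (10.0% to 11.7%). For *Zbtb16* it was 8.39% and for *Fcer1g* 8.15%. It was at least 5% for 19 genes and had a median of 2.40% over the 270.

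For the cytokines it was far lower. Subcluster 7 held 2.61% of the ILC2s with *Il4*, 2.33% of those with *Il5*, 2.33% of those with *Il13* and 2.23% of those with *Areg*. Most ILC2s with *Il5*, *Il13* or *Areg* therefore lay in other subclusters, although the share of cells with the gene was higher in subcluster 7 than in all the rest.

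**Figure D4:**
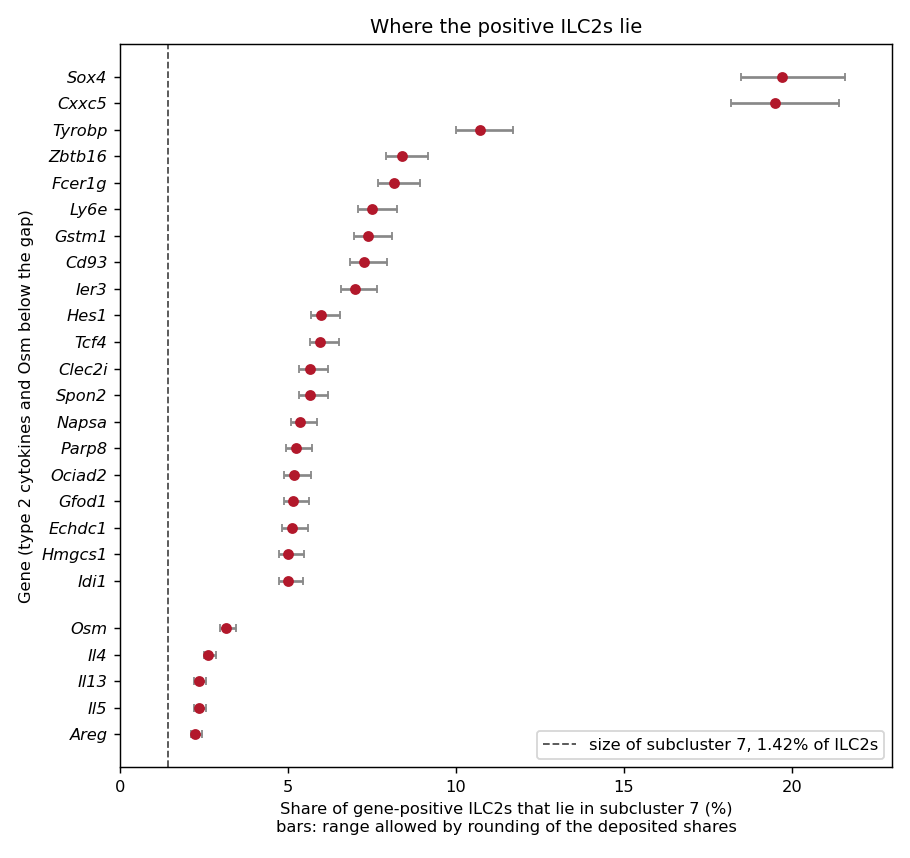
Percentage of all ILC2s with the gene that lie in subcluster 7 (x axis), for the 20 listed genes with the highest values and, below the gap, *Osm*, *Il4*, *Il5*, *Il13* and *Areg*. Bars span the range that rounding allows and the dashed line is the size of the subcluster, 1.42% of ILC2s. *Sox4* and *Cxxc5* stand near 20%, and the 4 type 2 genes lie between 2.23% and 2.61%.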

How the data were processed

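Droplet-based 3′ single-cell libraries (10x Chromium) were processed with Cell Ranger and mm10 per the labels (Cell Ranger version not given in the sources used here). The authors removed doublets and dead cells by flow cytometry, merged the 4 libraries, log normalized the values, left out cells with markers of other lineages (CD3, CD11b, FcεRI and CD45R among them), reclustered the ILC2s in Seurat and ran FindAllMarkers. No doublet caller could be run on tables without cells. The deposited columns used give, as a fraction to 3 decimals, the cells in which a gene was detected, inside a subcluster and in all other ILC2s. Deposited fold changes and p-values hold the authors' own comparisons and were not used. The smallest deposited log2 fold change was 0.25, and every listed gene reached 25.0% of cells on the higher side.

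For a gene listed for several subclusters, the share in other ILC2s plus the size times the difference of both shares equals the share in all ILC2s. Sizes were fitted to this by least squares over 768 genes (Python 3.11.15, NumPy 2.4.6, SciPy 1.17.1), and linear programming gave the range that rounding allows. Residuals had a root mean square of 0.0204 percentage points, and the 10 sizes summed to 100.2%. Tested on simulated data over 768 genes, the largest error was 0.0175 points. Shares outside the listing subclusters and the location of positive cells follow from these sizes. Gene positions are from GENCODE vM21. Shares of the cell type table were not set beside those of the subcluster table and served only for the limit of 10 points within its own lists, since for 116 genes of its ILC2 type they were a median of 16.8 points above those of the subcluster table. Of the gene symbols, 2 were dates (a spreadsheet change), 1 of them among the 270.

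Genes named are the 5 markers, the 20 with the largest difference, the 10 largest listed for no other subcluster, the 5 lowest, and up to 6 of each of 31 gene lists. The members and lists were chosen with earlier results of these data known, 4 lists and further single genes were added after the values were seen, and *Osm* was then taken off the Fc receptor list as a wrong entry. The groups were taken from the labels. Some genes are not reported here by name, 1 of them among the 20.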

Additional observations from a re-analysis of the deposited data

How the results depend on the processing

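The solved size lay between 1.41% and 1.43% under 12 other fits, all within the range that rounding allows. Keeping genes with a higher share left 269 of 270 genes. The count of 252 genes became 262 at 5 points, 182 at 20 points and 184 at a ratio of 1.5. The 101 genes listed for no other subcluster became 115 with higher shares only and 126 at 10 points in every list. Leaving out ribosomal protein and mitochondrially encoded genes changed nothing, since the table lists 0 of them. Of 30 overlaps with other lists, 17 moved by over 1.5 times when both lists were held to 10 points. No paired analysis was possible because all libraries are pooled in each deposited value. The tables give no depth and no numbers of cells, so no counting interval is given.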

Other observations

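Further genes listed for subcluster 7 alone were named after their values were seen, for low shares in other ILC2s. *Cd93*, *Ly6e*, *Clec2i* and *Spon2* among them were close to the 25.0% that every listed gene reached. That they were listed for no other subcluster follows in part from this limit. *Cd93*, which encodes a C-type lectin-like surface protein, was found in 26.0% against 4.8%, *Ly6e* in 27% against 4.8%, *Gstm1*, a glutathione transferase gene, in 31.5% against 5.7%, *Napsa*, an aspartic protease gene, in 38.5% against 9.8%, *Clec2i* in 27% against 6.5% and *Spon2* in 27% against 6.5%. In the table of all sorted cells, *Cd93* was among the genes listed for MMP_LMPP and 4 other types, *Gstm1* for MMP_LMPP and 3 others, and *Napsa* for Basophil, MMP_LMPP, Macrophage and Plasma cell. Among genes shared with several subclusters, *Plac8* was found in 61.5% of subcluster 7 and in 41.5% to 45.8% of subclusters 2, 4, 6 and 8, and *Ubash3b* in 70.0% against 34.4% of subcluster 0 and 38.9% of subcluster 3.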
